A study of Mus musculus with 12 samples.

Results

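The genes described here are 9 interferon-stimulated genes, Ifit1, Ifit2, Ifit3, Irf7, Isg15, Oas1a, Usp18, Rsad2 and Ifi44, in the livers of 12 mice. They were listed by symbol, with earlier results of these data known, and all 9 were found among the 23849 gene symbols of the expression table, each on a single line. The mice were male C57BL/6 wild-type animals, 8 weeks old per the labels, and every one of them, controls included, was fed a high-fat diet (HFD) before and during the treatment. For 2 weeks they received either vehicle or Libramed, a mixture of plant fibers that swells into a gel and stays in the gut, known as Policaptil Gel Retard in the methods of the study. Livers were collected at ZT0 or ZT12, where Zeitgeber time (ZT) counts hours from lights on, so that ZT0 closes the active phase of the mouse and ZT12 opens it. This gave 4 groups of 3 livers: vehicle at ZT0, Libramed at ZT0, vehicle at ZT12 and Libramed at ZT12. No mice on a normal diet were among these samples, so the levels below have no lean reference, and each liver gave a single time point.

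Interferons are secreted when sensors of foreign or misplaced nucleic acids are triggered. Type I interferons bind a receptor made of IFNAR1 and IFNAR2, whose kinases activate transcription factors in the cytoplasm. These enter the nucleus as a complex that binds a short repeated motif, the interferon-stimulated response element, before the start of the genes described here. IRF7 is the transcription factor that amplifies the production of interferon. The IFIT proteins bind viral RNA. ISG15 is a ubiquitin-like modifier and USP18 removes it from proteins and also restrains the interferon receptor. OAS1 makes 2'-5' oligoadenylates that switch on RNase L, RSAD2 (viperin) produces an antiviral nucleotide, and IFI44 is an antiviral protein of the cytoplasm. In the liver the pathway is best known from viral hepatitis, where both hepatocytes and resident macrophages respond to interferon.

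The response element was visible in the reference sequence of 5 of the 8 members that had an entry in the RefSeq promoter table (GRCm38.p6, 250 bases before to 50 bases after each gene start). The letters searched, on both strands and with overlapping matches counted, were GAAA, any 2 bases, GAAA, which read as TTTC, any 2 bases, TTTC on the other strand. Such a match was present in 3.44% of all 32851 promoter windows, and 2 or more matches in 0.225% of them. Ifit1, Ifit3 and Oas1a had 2 matches each, Isg15 had 3 and Rsad2 had 1, while the 250 bases before the start of Ifit2, Irf7 and Ifi44 held none. The 5 stretches are shown because they are the sequence feature that these genes share, with the matched bases in capitals, and each runs 5′ to 3′ on the strand of its gene and lies before the start.
Ifit1 (chr19:34640760-34640838, plus strand): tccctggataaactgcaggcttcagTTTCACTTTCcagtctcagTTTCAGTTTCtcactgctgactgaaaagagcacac
Ifit3 (chr19:34583348-34583441, plus strand): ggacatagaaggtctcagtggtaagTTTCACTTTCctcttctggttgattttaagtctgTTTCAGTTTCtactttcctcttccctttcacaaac
Isg15 (chr4:156200850-156200921, minus strand): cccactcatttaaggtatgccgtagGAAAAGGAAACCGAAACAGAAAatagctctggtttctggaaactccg
Oas1a (chr5:120907526-120907570, minus strand): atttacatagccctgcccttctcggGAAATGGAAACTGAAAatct
Rsad2 (chr12:26456538-26456597, minus strand): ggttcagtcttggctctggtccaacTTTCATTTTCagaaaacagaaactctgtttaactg
In Isg15 the 3 matches overlap into a single run that begins 78 bases before the start, and in Oas1a the run of 2 begins 20 bases before it. A match of letters is a description of the sequence and not a measured binding site. Ifit3 has a neighbouring copy, Ifit3b, whose corresponding stretch was identical over all 94 bases shown, and Oas1g shared with Oas1a the first 43 bases of its stretch.

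All 9 genes were detected in each of the 12 livers, but at very different levels. Levels are given in FPKM (mapped fragments scaled by the length of the transcript and the size of the library), as deposited by the authors. Irf7 and Isg15 were the most abundant, at means over the 12 livers of 29.4 and 28.6 FPKM. Usp18 (6.56 FPKM), Ifit3 (4.85 FPKM) and Ifit1 (3.24 FPKM) were in between. Oas1a (1.51 FPKM), Rsad2 (1.22 FPKM) and Ifi44 (1.03 FPKM) stood just above the minimum mean of 1 FPKM set for testing, and Ifit2 fell below it with 0.388 FPKM. Thus 8 of the 9 members were tested among 9806 genes, and Ifit2 was described only. The deepest library was 1.8 times as deep as the shallowest, judged from the lowest values in the table, and absolute read numbers are unknown, so the counting error behind single values is not known. Across the 12 livers, the relative depth and the mean standardized level of the 8 tested genes had r = -0.22. The tissue carried its hepatocyte markers (6 of 7 above 0, summed over the list at 33702 to 48044 FPKM), although albumin itself was listed at 0 in every liver.

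Irf7, on chromosome 7 (141262706 to 141266481, minus strand, GRCm38), was higher at ZT12 than at ZT0 under both treatments by its means. Its levels in the vehicle livers at ZT0 were 32.7, 23.6 and 25.0 FPKM (replicates 1, 2 and 3), against 36.7, 35.6 and 29.6 FPKM at ZT12. In the livers given Libramed they were 27.3, 26.6 and 21.4 FPKM at ZT0 and 27.6, 37.8 and 29.1 FPKM at ZT12. The vehicle groups overlapped through a single liver at ZT0, whereas with Libramed all ZT12 livers lay above all ZT0 livers, with 27.3 FPKM in the highest ZT0 liver and 27.6 FPKM in the lowest ZT12 liver. On the log2(FPKM + 1) scale the difference was 0.32 ± 0.15 (SE) with vehicle and 0.31 ± 0.15 with Libramed. Neither passed the test in limma at the unadjusted or the adjusted threshold (adjusted p = 0.207 and 0.211). With a library left out, the unadjusted threshold of 0.05 was passed without vehicle ZT0 replicate 1, where the vehicle difference was 0.46 (adjusted p = 0.0628), without vehicle ZT12 replicate 3, where it was 0.42 (adjusted p = 0.209), and without Libramed ZT12 replicate 1, where the Libramed difference was 0.39 (adjusted p = 0.166). Over all alternatives the adjusted p ran from 0.0628 to 0.419 with vehicle and from 0.166 to 0.476 with Libramed. Between the treatments, at either time, Irf7 differed by less than its standard error.

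The IFIT genes lie near each other on chromosome 19, with Ifit2 at 34550694 to 34576419, Ifit3 at 34583531 to 34588731 and Ifit1 at 34640871 to 34650009, all on the plus strand. Ifit3b lies between Ifit3 and Ifit1. Ifit1 levels were 4.74, 2.24 and 2.59 FPKM with vehicle at ZT0, 4.80, 3.25 and 3.35 FPKM with vehicle at ZT12, 3.47, 3.05 and 2.55 FPKM with Libramed at ZT0 and 2.02, 3.37 and 3.51 FPKM with Libramed at ZT12. Ifit3 levels were 5.72, 2.23 and 4.36 FPKM with vehicle at ZT0, 7.27, 5.69 and 4.77 FPKM with vehicle at ZT12, 5.02, 3.91 and 4.56 FPKM with Libramed at ZT0 and 4.79, 4.53 and 5.33 FPKM with Libramed at ZT12. For both genes the vehicle ZT0 group alone held values from near the lowest to near the highest of the 12, and every pair of groups overlapped. Ifit3 was 0.49 ± 0.27 (SE) higher at ZT12 than at ZT0 with vehicle on the log2 scale (adjusted p = 0.301 in limma). Without vehicle ZT0 replicate 2 it was 0.19 (adjusted p = 0.551), and without vehicle ZT0 replicate 1 it was 0.72 and passed the unadjusted threshold (adjusted p = 0.136), and these 2 adjusted p are the highest and the lowest over all alternatives. Ifit2, measured at 0.165 to 0.664 FPKM, had both its lowest and its highest liver in the vehicle ZT12 group. Ifit3b, the near copy of Ifit3, was measured at 0.513 to 1.50 FPKM, and how the reads that both copies share were divided between them is not known, so the levels of the pair are uncertain. The more distant relative Ifit1bl1 did not exceed 0.102 FPKM.

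**Figure D1:**
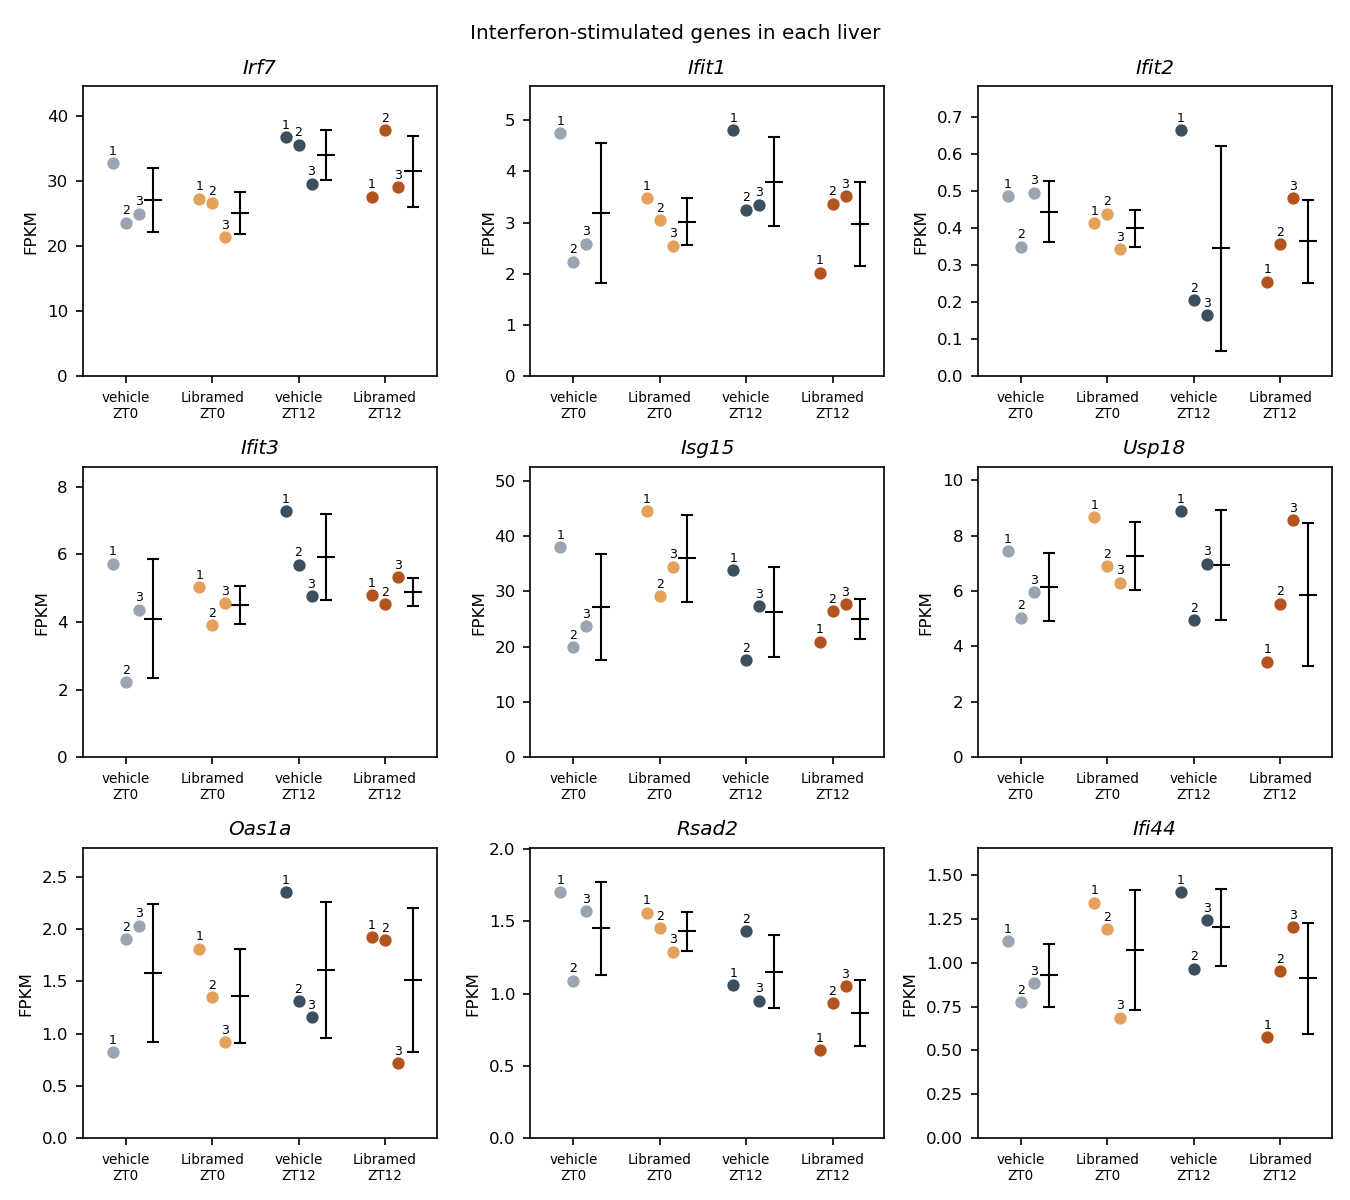
FPKM of each of the 9 genes in the 12 livers, with the replicate number above each point and the group mean with its SD (n = 3) beside the points. Within most groups the 3 livers spread as widely as the groups do, as for Ifit1 with vehicle at ZT0 (2.24 to 4.74 FPKM). Isg15 and Rsad2 with Libramed lie lower at ZT12 than at ZT0 without overlap.

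Isg15 had the widest spread within groups of the tested members. On chromosome 4 (156199424 to 156200818, minus strand), it read 38.0, 19.9 and 23.7 FPKM with vehicle at ZT0 and 33.9, 17.6 and 27.3 FPKM with vehicle at ZT12, a nearly complete overlap. With Libramed it read 44.5, 29.1 and 34.5 FPKM at ZT0 and 20.9, 26.4 and 27.7 FPKM at ZT12, so that all ZT12 livers lay below all ZT0 livers. The change was -0.50 ± 0.17 (SE) on the log2 scale (95% interval -0.90 to -0.10), which passed the unadjusted threshold of 0.05 but not the adjusted one in limma (adjusted p = 0.104). An exact two-sided permutation test of the 6 livers gave p = 0.1, the smallest that 3 against 3 allows, beside an unadjusted p of 0.0220 in limma. The call at the unadjusted threshold was lost without Libramed ZT0 replicate 1, where the change was -0.34 (adjusted p = 0.224), without Libramed ZT12 replicate 1, where it was -0.38 (adjusted p = 0.221), and in a fit over all 12 livers (adjusted p = 0.237), and the adjusted p ran from 0.0718 to 0.237 over the alternatives. The difference in this change between Libramed and vehicle, -0.46 ± 0.37, did not pass its own test (interaction, adjusted p = 0.869). At ZT0 Isg15 was 0.42 ± 0.25 higher in mean with Libramed than with vehicle, with the groups overlapping, and did not pass the test (adjusted p = 0.652). Without vehicle ZT0 replicate 1 this difference was 0.68 and passed the unadjusted threshold (adjusted p = 0.328, in a range of 0.328 to 0.957 over the alternatives).

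Usp18, which reverses the conjugation of ISG15, had its lowest and one of its highest levels in the same group. Located on chromosome 6 (121245906 to 121270917, plus strand), it read 7.45, 5.04 and 5.97 FPKM with vehicle at ZT0, 8.88, 4.95 and 6.99 FPKM with vehicle at ZT12, 8.66, 6.89 and 6.30 FPKM with Libramed at ZT0 and 3.45, 5.55 and 8.57 FPKM with Libramed at ZT12. No pair of groups was separate. Its largest differences relative to their error were 0.21 ± 0.16 (SE) for Libramed against vehicle at ZT0 (adjusted p = 0.724) and -0.33 ± 0.26 for ZT12 against ZT0 with Libramed (adjusted p = 0.459). Without Libramed ZT12 replicate 3, the change over time with Libramed was -0.61 and passed the unadjusted threshold (adjusted p = 0.132), and without Libramed ZT12 replicate 1 it was -0.05 (adjusted p = 0.887), the lowest and the highest adjusted p over the alternatives. An annotated long noncoding RNA, Gm44148, overlaps Usp18 on the opposite strand, and the sources differ on whether the libraries kept the strand, so reads of both may have been counted together.

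Among the antiviral effectors, Rsad2 alone changed at the unadjusted threshold. Rsad2, on chromosome 12 (26442746 to 26456452, minus strand), read 1.70, 1.09 and 1.57 FPKM with vehicle at ZT0 and 1.06, 1.43 and 0.951 FPKM with vehicle at ZT12. With Libramed it read 1.56, 1.45 and 1.29 FPKM at ZT0 and 0.609, 0.933 and 1.05 FPKM at ZT12. With Libramed the ZT12 livers were all lower than the ZT0 livers, while the vehicle groups overlapped. The change was -0.39 ± 0.11 (SE) with Libramed (95% interval -0.66 to -0.12, adjusted p = 0.0687 in limma), past the unadjusted threshold but not the adjusted one. An exact two-sided permutation test gave p = 0.1, again the smallest possible, beside an unadjusted p of 0.0110 in limma, and the adjusted p ran from 0.0639 to 0.176 over the alternatives. The value with vehicle was -0.19 ± 0.14 (adjusted p = 0.421), and the difference between the treatments, -0.20 ± 0.19, did not pass its test (interaction, adjusted p = 0.878). At these low levels the added pseudocount of 1 FPKM shrinks fold changes, and with a pseudocount of 0.1 the change with Libramed was -0.69. Oas1a (chromosome 5, 120896256 to 120907521, minus strand) was measured at 0.715 to 2.35 FPKM and Ifi44 (chromosome 3, 151730922 to 151749960, minus strand) at 0.575 to 1.40 FPKM. Every comparison of Oas1a gave a difference smaller than its standard error, with group means of 1.36 to 1.61 FPKM. Ifi44 had means of 0.927 ± 0.179 (SD, n = 3) and 1.20 ± 0.221 FPKM with vehicle at ZT0 and ZT12 and of 1.07 ± 0.342 and 0.911 ± 0.317 FPKM with Libramed, all overlapping. Oas1g, a near copy of Oas1a, was measured at 0.0951 to 0.764 FPKM, and the split of shared reads between the 2 is likewise uncertain.

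In the order of group means, vehicle at ZT12 ranked first for 5 of the 9 genes (Ifit1, Ifit3, Irf7, Oas1a and Ifi44), vehicle at ZT0 for Ifit2 and Rsad2, and Libramed at ZT0 for Isg15 and Usp18. Libramed at ZT12 ranked last for 5 genes (Ifit1, Isg15, Usp18, Rsad2 and Ifi44). No neighbours in any of the 9 orders were separate from each other. At the ends of the order, the first and the last group did not overlap for Isg15 (29.1 to 44.5 against 20.9 to 27.7 FPKM) and for Rsad2 (1.09 to 1.70 against 0.609 to 1.05 FPKM). These groups were picked by the means of each gene, which favours separation, and the share of all genes separate in this way was not computed. In the fixed comparisons of groups below, 13.1% to 34.9% of all genes tested did not overlap.

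The comparison of ZT12 with ZT0 asks which genes differ between the times of collection. Per the methods of the study, product or water was given by gavage once a day, shortly before ZT12. Time of day and time since gavage therefore cannot be told apart in either treatment. With vehicle, 0 of the 8 tested members passed an unadjusted p of 0.05, the threshold that the study used, where 27.4% of all genes tested did, and 0 passed an adjusted p of 0.05, where 10.4% did. By sign, 6 members were higher at ZT12 and 2 lower, with a median log2 fold change of 0.16 against 0.01 for all genes. Groups without overlap were found for 0 members and for 33.2% of genes. With Libramed, 2 members (Isg15 and Rsad2, both lower at ZT12) passed the unadjusted threshold, where 29.2% of genes did, and 0 passed the adjusted one, where 12.4% did. Here 3 members were higher and 5 lower, the median was -0.08 against 0.01, and the groups did not overlap for 3 members (Irf7, Isg15 and Rsad2), against 34.9% of genes. The lowest adjusted p of a member was 0.207 with vehicle and 0.0687 with Libramed. The vehicle count was 3 (Ifit1, Ifit3 and Irf7) without vehicle ZT0 replicate 1 and 1 (Irf7) without vehicle ZT12 replicate 3. The Libramed count was 1 (Rsad2) without Libramed ZT0 replicate 1 and 3 (Isg15, Rsad2 and Usp18) without Libramed ZT12 replicate 3.

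The comparison of Libramed with vehicle asks whether the product changed these genes in the liver. At ZT0, 0 members passed the unadjusted threshold (9.23% of all genes) and 0 the adjusted one (0% of genes), with 4 members higher and 4 lower and a median of 0.05 against -0.02. At ZT12, 0 members passed the unadjusted threshold (6.74% of genes) and 0 the adjusted one (0% of genes). All 8 were lower by sign with Libramed at ZT12, with a median of -0.21 against -0.01 for all genes. With both scaling alternatives all 8 stayed lower. Without vehicle ZT12 replicate 1 or Libramed ZT12 replicate 1 there were 2 higher among the 8. Without vehicle ZT12 replicate 3 or Libramed ZT12 replicate 3 there was 1 higher, and without replicate 2 of either group 0. The values past their standard error were -0.28 ± 0.19 (SE) for Ifit1, -0.22 ± 0.14 for Ifit3, -0.21 ± 0.15 for Ifi44 and -0.20 ± 0.13 for Rsad2, with adjusted p from 0.759 to 0.766, and without vehicle ZT12 replicate 3 the value of Ifit3 was -0.34 and passed the unadjusted threshold. Vehicle ZT12 replicate 1 was the highest of all 12 livers for 6 of the 9 genes and Libramed ZT12 replicate 1 the lowest for 4. Groups did not overlap for 0 members at either time, against 15.1% of genes at ZT0 and 13.1% at ZT12. Over the 8 genes, the outermost bounds of the 95% intervals of the treatment difference were -0.65 (Oas1a) and 1.02 (Isg15) at ZT0 and -0.96 (Usp18) and 0.54 (Oas1a) at ZT12. The intervals of single genes were narrower, as for Rsad2 at ZT0 (-0.29 to 0.28). Each included 0, so with 3 livers a group a change within the interval of a gene cannot be told from no change.

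**Figure D2:**
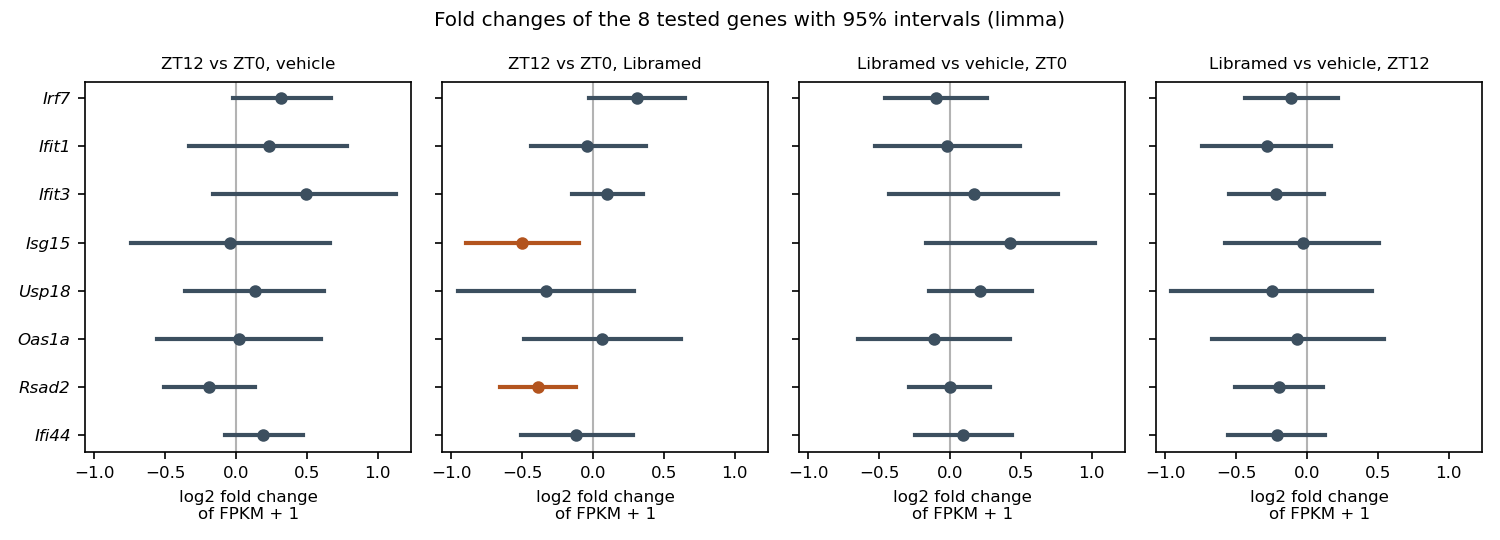
Log2 fold changes of FPKM + 1 with 95% intervals from limma for the 8 tested genes in 4 comparisons, in orange where the unadjusted p was under 0.05. Isg15 (-0.50) and Rsad2 (-0.39) with Libramed over time are the 2 intervals that exclude 0. All 8 points lie left of 0 for Libramed against vehicle at ZT12, each with an interval that includes 0.

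Nor did the change over time differ between treatments by the interaction test, in which 0 members passed an unadjusted p of 0.05 (6.63% of genes) and 0 the adjusted one (0% of genes). The members' median interaction was -0.29 against 0.00 for all genes, with 7 of 8 below 0, and the smallest adjusted p was that of Ifi44 (-0.31 ± 0.22 SE, adjusted p = 0.852). Without Libramed ZT12 replicate 3, Usp18 passed the unadjusted threshold in this test (-0.74, adjusted p = 0.759). Over both times, 0 members passed the unadjusted threshold for Libramed against vehicle (10.1% of genes) and 0 the adjusted one (0.0204% of genes, which is 2 genes). The smallest adjusted p of a member there was 0.717, for Rsad2, at -0.10 ± 0.09, and the largest value was that of Isg15, at 0.20 ± 0.19 (adjusted p = 0.738).

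The livers of one group differed more in most of these genes than in most other genes. The within-group SD on the log2 scale was 0.38 for Isg15, 0.37 for Oas1a and Usp18 and 0.31 for Ifit1 and Ifit3. That placed these 5 at the 92.1 to 95.1 percentile of all genes tested, where genes with a mean within 1.5-fold of theirs had median SDs of 0.13 to 0.15. Irf7 (0.21), Ifi44 (0.20) and Rsad2 (0.16) were at the 79.0, 77.0 and 63.0 percentile. Among genes with a mean within 1.5-fold they were at the 81.2, 69.3 and 52.8 percentile, beside median SDs of 0.13, 0.16 and 0.16. Rsad2 thus varied about as much as genes of its level. Taken as the mean of the standardized levels of the 8 tested genes, vehicle ZT12 replicate 1 was highest (1.11 SD), followed by Libramed ZT0 replicate 1 (0.73) and vehicle ZT0 replicate 1 (0.64). The lowest were Libramed ZT12 replicate 1 (-1.01), vehicle ZT0 replicate 2 (-0.94) and Libramed ZT0 replicate 3 (-0.50). High and low livers thus came from 3 groups each, with both times and both treatments on either side.

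**Figure D3:**
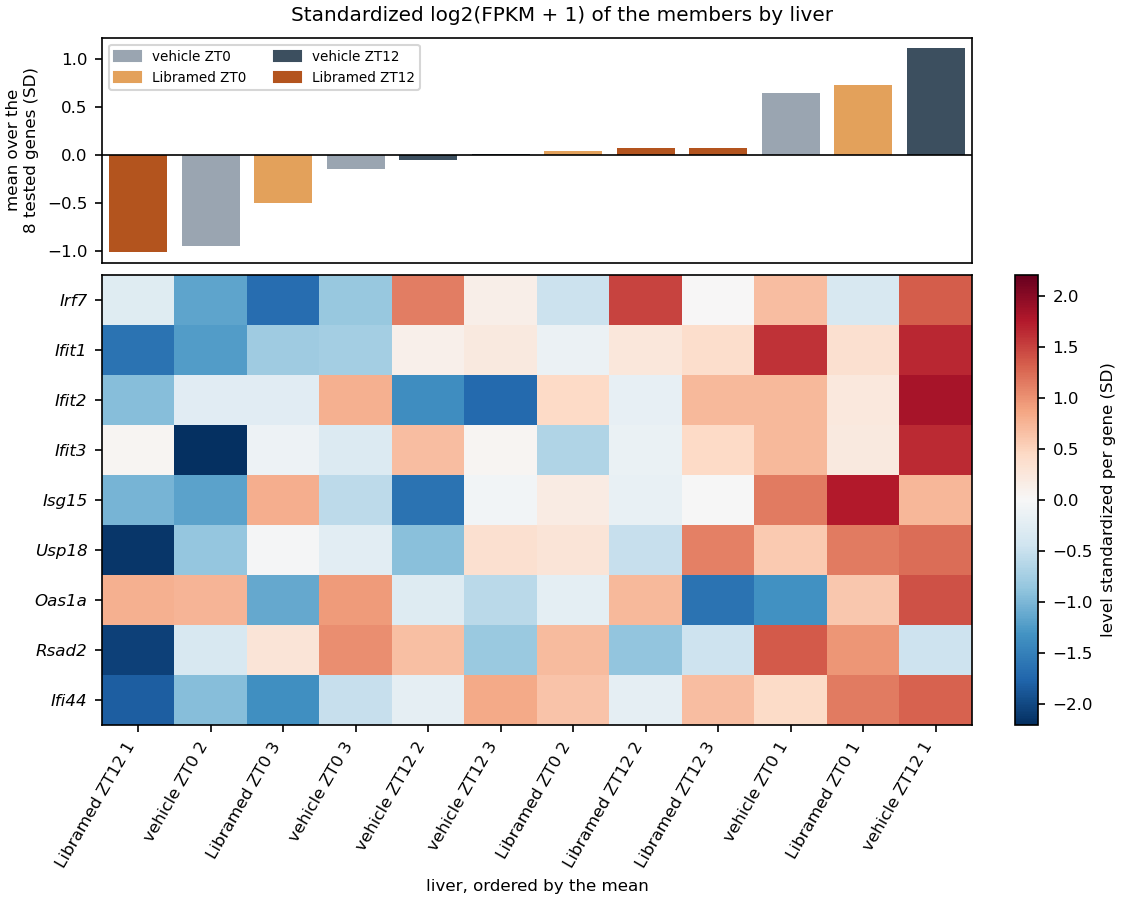
The lower panel shows log2(FPKM + 1) of each gene standardized over the 12 livers, in SD, and the upper panel the mean over the 8 tested genes (Ifit2 is shown but not in the mean), with livers ordered by that mean and coloured by group. The order runs from Libramed ZT12 replicate 1 (-1.01) to vehicle ZT12 replicate 1 (1.11) and mixes the 4 groups. The row of Oas1a does not follow the others.

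The members other than Oas1a varied together over the livers. Among the 28 pairs of members without Oas1a, Pearson's r over the 12 livers had a median of 0.46 (range -0.12 to 0.87) and was above 0 in 26. With the group means removed, so that only differences within groups remained, the median was 0.60 (range 0.25 to 0.89) and all 28 were above 0. The 8 pairs with Oas1a had a median of -0.17 (range -0.27 to 0.17). These correlations describe 12 libraries that share depth and composition within each liver and carry no test. Outside the members, genes most like their mean standardized level were Sft2d3 (r = 0.87), Ube2l6 (0.85), Pigk (0.84), Vma21 (0.82), Gyg (0.82), Zfp58 (0.81), Parp12 (0.80), Olig1 (0.79) and Ebag9 (0.79), out of 9806 genes over 12 livers. Of these, Ube2l6 encodes the conjugating enzyme of ISG15 and Parp12 an interferon-induced ADP-ribosyltransferase. Ube2l6 was measured at 45.2 to 72.1 FPKM and Parp12 at 6.64 to 9.90 FPKM.

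The rest of the pathway was described with lists ordered from ligand to target, 138 genes in all, of which 88 were tested. Almost no RNA of the ligands was measured. Of 21 interferon genes, 2 were above 0 in any liver: Ifng, the type II interferon of T and NK cells, in 3 livers with at most 0.194 FPKM, and Ifnk, a type I interferon of keratinocytes, in 2 livers with at most 0.173 FPKM. The other 19 were listed at 0, which in libraries of unknown depth does not show that they were absent from the tissue. For Libramed against vehicle, 0 of the 88 genes passed an adjusted p of 0.05 in limma at ZT0, at ZT12, over both times or in the interaction. At the unadjusted threshold 4 genes passed at ZT0 (4.55%, against 9.23% of all genes), 11 at ZT12 (12.5% against 6.74%), 10 over both times (11.4% against 10.1%) and 13 in the interaction (14.8% against 6.63%). Over time 33 passed the unadjusted threshold with vehicle (37.5% against 27.4%) and 29 with Libramed (33.0% against 29.2%). The adjusted threshold was passed over time by 8 of the 88 genes (9.09%) with vehicle and 14 (15.9%) with Libramed, beside 10.4% and 12.4% of all genes as given above. Of these 22 calls 16 were lower at ZT12 and 6 higher.

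Upstream, most genes that changed were lower at ZT12. Among 11 tested receptor and JAK-STAT genes, Stat2 fell with vehicle from 26.0 ± 1.24 to 17.6 ± 1.14 FPKM (SD, n = 3; log2 change -0.54 ± 0.08 SE, adjusted p = 0.0131). With Libramed the Stat2 means were 20.4 ± 1.51 and 20.3 ± 2.59 FPKM. Ifnar1, a receptor subunit, fell with Libramed from 5.33 ± 0.0711 to 4.09 ± 0.246 FPKM (adjusted p = 0.0431). Its value with vehicle was -0.24 ± 0.09 SE (adjusted p = 0.140), without overlap between the times. Ifnar2, the other subunit, had 0.25 ± 0.10 with vehicle (adjusted p = 0.155) and 0.07 ± 0.11 with Libramed (adjusted p = 0.734). By sign, 4 of the 11 genes were higher at ZT12 and 7 lower with vehicle, and 3 higher and 8 lower with Libramed. Among 6 tested interferon regulatory factors other than Irf7, 2 changed, in opposite directions. Irf1, an activator, fell with vehicle from 23.3 ± 5.03 to 12.3 ± 0.940 FPKM (-0.86 ± 0.15 SE, adjusted p = 0.0188), and Irf2, which competes with IRF1 for the same sites, rose with Libramed from 19.5 ± 2.63 to 32.5 ± 1.51 FPKM (0.72 ± 0.11 SE, adjusted p = 0.00861). The value of Irf1 with Libramed was -0.56 ± 0.19 (adjusted p = 0.102) and that of Irf2 with vehicle 0.40 ± 0.12 (adjusted p = 0.0827), for Irf2 without overlap between the times. Of 10 tested sensing genes, 4 were called over time, all lower at ZT12. These were Ikbke, a kinase that activates IRF proteins (-0.74 ± 0.08 SE with vehicle, adjusted p = 0.00527), Ticam1, the adaptor of Toll-like receptor 3 (-0.63 ± 0.10 with vehicle, adjusted p = 0.0131), Mavs, the mitochondrial adaptor (-0.48 ± 0.11 with vehicle, adjusted p = 0.0431), and Ddx58, the RNA sensor RIG-I (-0.36 ± 0.09 with Libramed, adjusted p = 0.0415). In the other treatment the values were -0.42 ± 0.11 for Ikbke (adjusted p = 0.0585) and -0.37 ± 0.11 for Ticam1 (adjusted p = 0.0688), both without overlap between the times, -0.04 ± 0.10 for Mavs (adjusted p = 0.805) and -0.06 ± 0.10 for Ddx58 (adjusted p = 0.733). Of 8 tested negative regulators, Irf2bp2, a corepressor of IRF2, fell with Libramed (-0.64 ± 0.16, adjusted p = 0.0425), beside -0.51 ± 0.24 with vehicle (adjusted p = 0.227). No gene of these lists was called with both treatments, and none differed between the treatments in the interaction at the adjusted threshold.

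Among the targets, the list closest to the members was that of other type I interferon-stimulated genes, with 31 of 44 tested. At ZT12 against ZT0, 12 were higher and 19 lower with vehicle, and 4 were higher and 27 lower with Libramed, with medians of -0.10 and -0.12. Those called were all lower at ZT12. Lgals9, which encodes galectin-9, was called under both treatments, from 371 ± 21.4 to 249 ± 11.6 FPKM with vehicle (-0.57 ± 0.09 SE, adjusted p = 0.0123) and from 361 ± 18.0 to 245 ± 18.6 FPKM with Libramed (-0.56 ± 0.09, adjusted p = 0.0110). Isg20, an antiviral exonuclease, was called with vehicle (-0.75 ± 0.14, adjusted p = 0.0214), beside -0.29 ± 0.11 with Libramed (adjusted p = 0.142), where the times did not overlap either. Cmpk2, the kinase gene that neighbours Rsad2, fell with Libramed from 2.10 ± 0.224 to 0.876 ± 0.277 FPKM (-0.73 ± 0.13, adjusted p = 0.0155), as did Ly6a, which encodes the surface protein Sca-1 (-0.75 ± 0.15, adjusted p = 0.0241), and Trim21, a cytoplasmic antibody receptor (-0.41 ± 0.10, adjusted p = 0.0414). With vehicle these 3 genes had -0.28 ± 0.14, -0.32 ± 0.24 and -0.22 ± 0.09, with adjusted p of 0.244, 0.442 and 0.167. For Cmpk2 and Trim21 the times did not overlap with vehicle either. In the conjugation of ISG15, 1 of 3 tested genes was called, the activating enzyme Uba7, which rose with Libramed (0.35 ± 0.09, adjusted p = 0.0442), beside 0.14 ± 0.16 with vehicle (adjusted p = 0.621).

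The targets of interferon gamma moved in both directions. Of 21 tested genes in the list of GTPases and antigen processing, the immunoproteasome subunits Psmb8, Psmb9 and Psmb10 were higher at ZT12 than at ZT0 with Libramed. Psmb8 went from 39.2 ± 0.834 to 62.0 ± 2.67 FPKM (0.65 ± 0.07 SE, adjusted p = 0.00366), Psmb9 from 27.8 ± 2.36 to 45.6 ± 6.23 FPKM (0.69 ± 0.12, adjusted p = 0.0142) and Psmb10 from 35.8 ± 4.88 to 60.5 ± 6.82 FPKM (0.74 ± 0.12, adjusted p = 0.0125). Their values with vehicle were 0.48 ± 0.14, 0.48 ± 0.19 and 0.65 ± 0.23, with adjusted p of 0.0767, 0.163 and 0.128. With vehicle, too, the times did not overlap for Psmb8 and Psmb10. Nlrc5, the activator of MHC class I genes, rose with vehicle (0.35 ± 0.08, adjusted p = 0.0468), beside 0.25 ± 0.10 with Libramed (adjusted p = 0.161), where the times did not overlap either. The GTPase genes Gbp6 (-0.58 ± 0.14, adjusted p = 0.0447) and Gm4951 (-0.28 ± 0.07, adjusted p = 0.0491) fell with Libramed, beside -0.07 ± 0.14 and 0.02 ± 0.14 with vehicle (adjusted p = 0.801 and 0.956). Of the 22 calls over time named here, 5 (Ikbke, Irf2, Psmb8, Psmb10 and Lgals9, the last with Libramed) passed the adjusted threshold under every alternative. Testing all genes with no minimum FPKM ended 13 of the 22, and fitting the replicate number as a block ended 14. Leaving out a single liver ended 1, 2 and 6 of the 8 vehicle calls for ZT0 replicates 1, 2 and 3 and 4, 5 and 7 for ZT12 replicates 1, 2 and 3, where the highest adjusted p was 0.161. It ended 9, 9 and 7 of the 14 Libramed calls for ZT0 replicates 1, 2 and 3 and 5, 9 and 8 for ZT12 replicates 1, 2 and 3, where the highest adjusted p was 0.130.

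**Figure D4:**
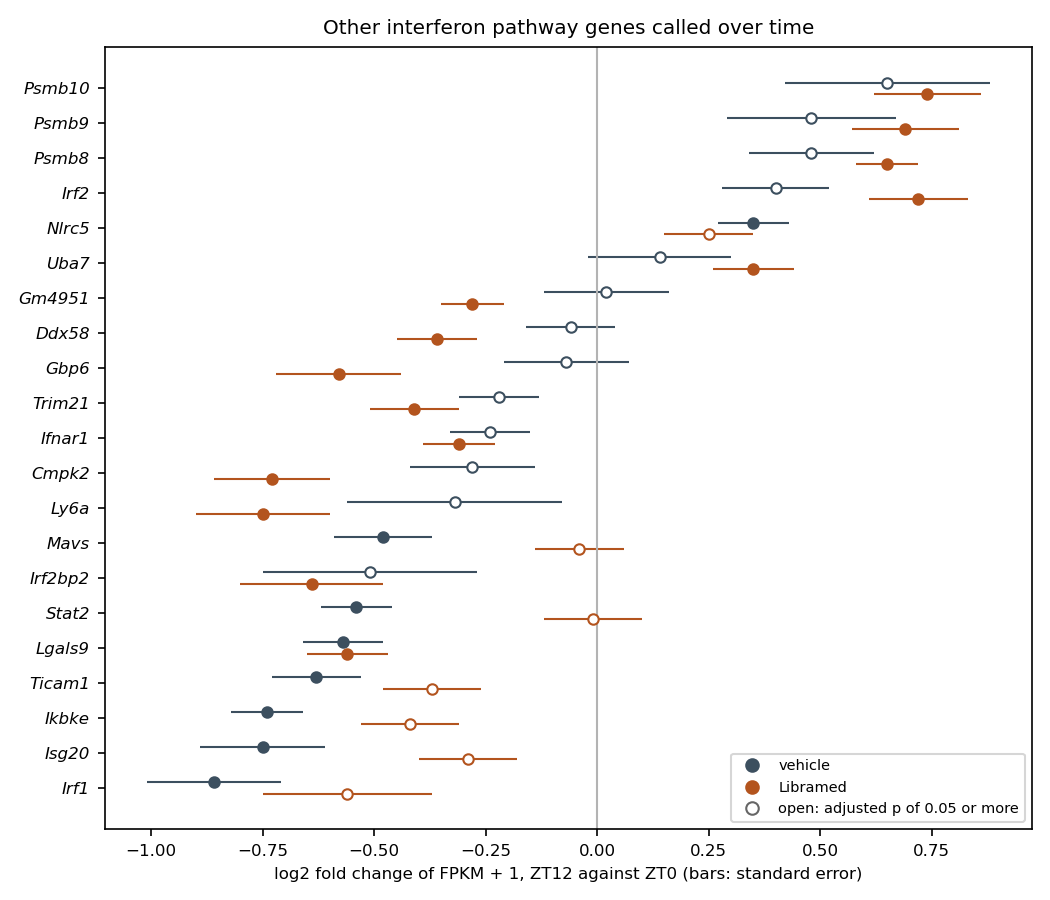
Log2 fold change of FPKM + 1 from ZT0 to ZT12, with its standard error, for the 21 other pathway genes called over time, with vehicle in dark blue and with Libramed in orange. Filled points passed an adjusted p of 0.05, and genes are ordered by the change with vehicle, from Irf1 at the bottom (-0.86) to Psmb10 at the top (0.65).

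Whole liver holds several cell types, and in such samples fewer cells of a type and less RNA per cell cannot be told apart. Summed markers of macrophages and Kupffer cells (12 genes, none at 0 throughout) were 86.9 to 99.6 FPKM with vehicle at ZT0, 53.5 to 84.5 FPKM with Libramed at ZT0, 43.2 to 110 FPKM with vehicle at ZT12 and 51.5 to 82.4 FPKM with Libramed at ZT12, and their sum had r = 0.31 with the mean standardized level of the members. At ZT0 1 of 9 tested macrophage markers was higher and 8 were lower with Libramed. Of the latter, 5 passed an unadjusted p of 0.05 in limma, where 9.23% of all genes tested did, and 0 an adjusted p of 0.05. At ZT12 4 were higher and 5 lower with Libramed, with 0 under either threshold. From ZT0 to ZT12, 0 were higher and 9 lower with vehicle, and 5 higher and 4 lower with Libramed. Markers of liver endothelium (5 genes) summed to 23.3 to 32.8 and 30.1 to 38.2 FPKM at ZT0 and to 12.2 to 20.7 and 19.2 to 20.3 FPKM at ZT12, with vehicle and with Libramed in that order, and so were lower at ZT12. Clec4g, at a mean of 19.2 FPKM, was the highest of the 5. A relation to the pathway genes that fell was not tested. In the 4 groups together, plasmacytoid dendritic cell markers (5 genes) summed to 0.435 to 3.58 FPKM, T and NK cell markers (10 genes) to 1.59 to 3.82 FPKM and neutrophil and monocyte markers (5 genes) to 0.897 to 18.9 FPKM. The plasmacytoid sum was mostly Ly6d (mean 1.40 FPKM, next Siglech at 0.152 FPKM). In the T and NK list Cd4 was highest (1.11 FPKM), followed by Nkg7 (0.632 FPKM). B cell markers (4 genes) were at 1.53 to 2.34 FPKM with Libramed at ZT0 and at 0.278 to 1.20 FPKM in the other 3 groups. None of the B cell markers reached the minimum mean for testing, the highest being Cd79b at a mean of 0.452 FPKM. The r with the members' mean level was 0.31, -0.36, 0.35 and 0.37 for these 4 lists, -0.05 for endothelium and -0.11 for hepatocytes. The part of any cell type in the members' levels was not tested.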

How the data were processed

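The authors made TruSeq libraries of liver RNA and deposited FPKM values for each gene in each library as 1 table. Per the labels, TopHat and Cuffnorm on mm10 (GRCm38) were used, whereas the methods of the study name ELAND and RPKM of uniquely aligned reads, so how shared reads were counted is unclear. No authors' test results were used. Of 24138 lines, 289 repeated a symbol, of which the line of highest mean was used. Genes whose mean over the libraries reached 1 FPKM were tested on the log2(FPKM + 1) scale with limma 3.58.1 in R 4.3.3 (mean-variance trend, two-sided, Benjamini-Hochberg adjustment over all 9806 genes). Comparisons of 2 groups were fitted on their 6 libraries, the interaction and the treatment effect over both times on all 12. Exact permutation tests used 20 or 400 arrangements. The calculations were tested on simulated data. Coordinates are from GENCODE vM21 and promoters from RefSeq. The members and gene lists were chosen with earlier results of these data known. Named were the 9 members and their near copies, list genes with an adjusted p under 0.05 in any comparison, and the 10 genes most like the members' mean level, 1 of which is not reported here. The 3 libraries of a group are labelled biological replicates. Alternatives were a pseudocount of 0.1, other minimum levels, limma without trend, median-ratio scaling, quantile normalization, a fit over all 12 libraries, the replicate number as a block, and each library left out.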

Additional observations from a re-analysis of the deposited data

Results flagged for a closer look

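In 7 of the named pathway genes, none of them a member, the change from ZT0 to ZT12 differed between Libramed and vehicle at an unadjusted p under 0.05 in the interaction test of limma, where 6.63% of all genes did so. None passed the adjusted threshold. For Stat2 the interaction was 0.53 (adjusted p = 0.519), with the vehicle ZT0 livers above those of the other 3 groups in mean. Mavs (0.44, adjusted p = 0.651), Isg20 (0.46, adjusted p = 0.702) and Ikbke (0.33, adjusted p = 0.725) likewise fell less over time with Libramed by these values. Cmpk2 (-0.45, adjusted p = 0.743), Gbp6 (-0.51, adjusted p = 0.725) and Ddx58 (-0.29, adjusted p = 0.725) had the opposite sign. These genes were named because of a change over time in 1 treatment, which favours such differences.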

How the results depend on the processing

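The number of members with an unadjusted p under 0.05 was 0 in 5 comparisons and 2 for ZT12 against ZT0 with Libramed. With vehicle over time it became 1 (Irf7) with the replicate block and ranged from 0 to 3 with 1 library left out. With Libramed over time it became 1 with a minimum mean of 5 FPKM, which leaves Rsad2 untested, 1 in the fit over all 12 libraries and 3 with the replicate block (Irf7 added) and ranged from 1 to 3 with 1 library left out. For Libramed against vehicle at ZT0 it became 1 (Isg15) with the replicate block and ranged from 0 to 1 with 1 library left out, as it did at ZT12 and for the interaction, and over both times it stayed 0. No member had an adjusted p under 0.05 under any alternative. Over 18 pairs of same-numbered libraries, deviations from group means had r of -0.28 to 0.34, with 4 above 0.1. Libraries of different number were not compared, so these values cannot decide whether replicate numbers pair the livers. None of the 22 member changes larger than their standard error, nor of the 22 pathway calls, reversed under the alternatives tried. Smaller member changes did change sign. For Libramed against vehicle at ZT12, Isg15 ran from -0.28 to 0.17, Oas1a from -0.20 to 0.18 and Usp18 from -0.53 to 0.03. The adjusted threshold was missed in 106 of the repeated tests of pathway genes and passed in 194. The replicate block ended 14 of the 22 pathway calls, among them Stat2, Irf1 and Psmb9. For the 22 member changes, 11 tests passed the unadjusted threshold that the reported value missed, and 3 the reverse. Depth is known only relatively, so the spread of 3 livers limits the precision.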
